A study of Mus musculus with 35 samples.

Results

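Collagen chains, laminin chains and integrin subunits were examined in cultured mouse neural progenitor cells (NPCs) that lack Mettl14, which encodes a subunit of the enzyme that writes N6-methyladenosine (m6A) on messenger RNA. The genes were taken by symbol from the annotation deposited with the RNA tables: all symbols of the form Col, number, a, number; Lama, Lamb or Lamc with a number; and Itga or Itgb with any ending. This gave 86 of the 23011 genes shared by the tables, comprising 44 collagen genes, 11 laminin genes, 27 integrin subunit genes and 4 genes that match the pattern without being subunits (Itgb1bp1, Itgb1bp2, Itgb3bp and Itgbl1). RNA of 59 of the 86 was high enough to test. Of the other 27, Col20a1 shared its batch 1 locus with a neighbouring gene and was tested in batch 3 alone, and 26 had at most 0.647 CPM (counts scaled to library size) in any library, 3 of them listed at 0 in every library.

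Mettl14 knockout (KO), heterozygous (Het) and wild-type (WT) NPCs from embryos were compared. Batch 1 held 3 KO lines (67, 73 and 78), 3 Het lines (47, 48 and 50) and 3 WT lines (43, 72 and 75), and batch 3 held 2 KO lines (530 and 534) and 2 WT lines (532 and 541), with 1 RNA-seq library each and 14087370 to 20046523 fragments per library. The KO allele derives from a loxP-flanked Mettl14 gene; the protocols describe both a germline deletion by EIIa-Cre and a brain deletion by nestin-Cre, and the labels do not tie a line to either. Lines 530, 534, 532 and 541 were also assayed for acetylation (H3K27ac) and trimethylation (H3K27me3) of histone H3 lysine 27 by chromatin immunoprecipitation, and m6A was mapped by immunoprecipitation (IP) in 2 WT samples. The tables number the libraries of a group without naming the line, so libraries are given as a group, and p-values measure only the spread between these cultures. RNA of Mettl14 itself was 22.2 ± 1.37 CPM in KO and 24.2 ± 1.18 CPM in WT of batch 1, and 26.96 ± 5.64 CPM in KO and 38.2 ± 1.81 CPM in WT of batch 3 (SD); a value over the whole locus counts the exons outside the deletion too and does not check the labels.

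Laminins are trimers of an alpha, a beta and a gamma chain that polymerise into the sheet of the basement membrane, where type IV collagen forms a second network. Integrins are alpha-beta pairs on the cell surface that hold cells to these sheets; in the developing brain, radial glial progenitors anchor their end-feet to the pial basement membrane through laminin-binding integrins with the beta1 subunit. Fibrillar collagens build the fibres of connective tissue, and fibril-associated collagens decorate them.

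The start regions below belong to the genes on which the results turn: the laminin beta pair, 1 of which was lower and 1 higher in KO cells, 2 collagen genes with large differences in opposite directions, the integrin gene with the largest fall, and the X-linked type IV collagen pair. Each is the 250 bases upstream of an annotated start from RefSeq (GRCm38.p6, the mm10 primary sequence), written 5′ to 3′ on the gene's strand. Capitals mark the GC box GGGCGG, the CAAT box CCAAT and the TATA box TATAAA on either strand; no 2 of them overlap in these windows.
Lamb1 (chr12:31265043-31265292, plus strand): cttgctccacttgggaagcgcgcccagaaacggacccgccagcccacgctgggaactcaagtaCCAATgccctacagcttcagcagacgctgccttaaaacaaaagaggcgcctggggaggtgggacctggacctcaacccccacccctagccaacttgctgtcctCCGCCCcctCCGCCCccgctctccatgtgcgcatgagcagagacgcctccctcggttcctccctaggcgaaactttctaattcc
Lamb2 (chr9:108479612-108479861, plus strand): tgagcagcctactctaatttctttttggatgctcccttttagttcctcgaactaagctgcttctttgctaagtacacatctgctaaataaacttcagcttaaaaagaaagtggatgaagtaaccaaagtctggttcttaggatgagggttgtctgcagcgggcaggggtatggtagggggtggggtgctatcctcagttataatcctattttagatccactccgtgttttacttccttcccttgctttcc
Col18a1, outer start (chr10:77166531-77166780, minus strand): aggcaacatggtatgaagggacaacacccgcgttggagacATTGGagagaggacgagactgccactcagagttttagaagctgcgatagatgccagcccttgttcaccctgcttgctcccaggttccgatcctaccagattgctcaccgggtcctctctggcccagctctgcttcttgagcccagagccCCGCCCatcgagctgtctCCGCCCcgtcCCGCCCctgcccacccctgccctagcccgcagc
Col18a1, inner start (chr10:77113706-77113955, minus strand): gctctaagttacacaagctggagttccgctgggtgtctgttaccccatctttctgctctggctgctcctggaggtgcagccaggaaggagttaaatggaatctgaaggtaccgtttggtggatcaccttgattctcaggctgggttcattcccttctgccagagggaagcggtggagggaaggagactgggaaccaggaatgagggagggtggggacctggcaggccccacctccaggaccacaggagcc
Col27a1 (chr4:63215162-63215411, plus strand): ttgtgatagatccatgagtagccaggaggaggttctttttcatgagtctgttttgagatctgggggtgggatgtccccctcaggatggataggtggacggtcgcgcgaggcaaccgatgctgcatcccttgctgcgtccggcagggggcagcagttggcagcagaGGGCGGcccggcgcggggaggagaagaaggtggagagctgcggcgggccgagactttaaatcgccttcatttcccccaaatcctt
Itga4 (chr2:79255176-79255425, plus strand): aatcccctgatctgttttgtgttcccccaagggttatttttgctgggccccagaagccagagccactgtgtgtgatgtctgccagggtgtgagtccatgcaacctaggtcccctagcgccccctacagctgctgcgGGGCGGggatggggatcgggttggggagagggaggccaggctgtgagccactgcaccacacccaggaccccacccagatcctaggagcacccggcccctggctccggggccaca
Col4a5 (chrX:141475169-141475418, plus strand): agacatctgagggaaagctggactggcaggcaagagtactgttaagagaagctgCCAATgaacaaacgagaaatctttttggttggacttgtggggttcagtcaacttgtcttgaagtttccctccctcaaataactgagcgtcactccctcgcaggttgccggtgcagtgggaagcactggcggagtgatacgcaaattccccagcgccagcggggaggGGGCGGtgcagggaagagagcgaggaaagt
Col4a6 (chrX:141474077-141474326, minus strand): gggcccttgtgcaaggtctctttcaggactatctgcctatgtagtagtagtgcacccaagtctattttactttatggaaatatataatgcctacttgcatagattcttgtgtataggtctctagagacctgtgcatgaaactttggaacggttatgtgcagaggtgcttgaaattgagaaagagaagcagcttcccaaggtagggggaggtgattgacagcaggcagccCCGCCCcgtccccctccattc

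Over all 68 such windows of the 62 members found in the RefSeq table, 47.1% held GGGCGG, 26.5% CCAAT and 7.35% TATAAA, against 32.7%, 33.8% and 12.4% of all 32851 windows. The median number of CG dinucleotides was 10 in the members' windows and 6 in all windows. The Lamb2 window and the inner Col18a1 window, with 3 CG each, hold none of the 3 motifs, whereas the Lamb1 window has 14 CG, 2 GGGCGG and 1 CCAAT. A match is a string of letters and no evidence of a bound factor.

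Of the 59 tested genes, 12 had more RNA in KO than in WT cells, 25 had less, and 22 did not pass the test in the fit over both batches (edgeR quasi-likelihood test, Benjamini-Hochberg adjusted p below 0.05). The share called, 37 of 59, lies near that of all genes, of which 63.4% were called (30.8% higher and 32.6% lower). The median absolute log2 fold change was 0.90 over the 59 genes and 0.45 over all 13773 tested genes, and the median log2 fold change was −0.20 and −0.01. The 59 genes and all genes were not matched for RNA level in these medians. In 9 genes called higher and 20 called lower, KO and WT libraries did not overlap in either batch; over all genes these shares were 22.3% and 24.8%. All 7 tested laminin genes were called (2 higher, 5 lower), as were 19 of 29 collagen genes (8 higher, 11 lower), 8 of 19 integrin subunits (2 higher, 6 lower) and 3 of the 4 genes matched by name only (all lower). These are bulk cultures, in which fewer cells of a type and less RNA per cell cannot be told apart.

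**Figure D1:**
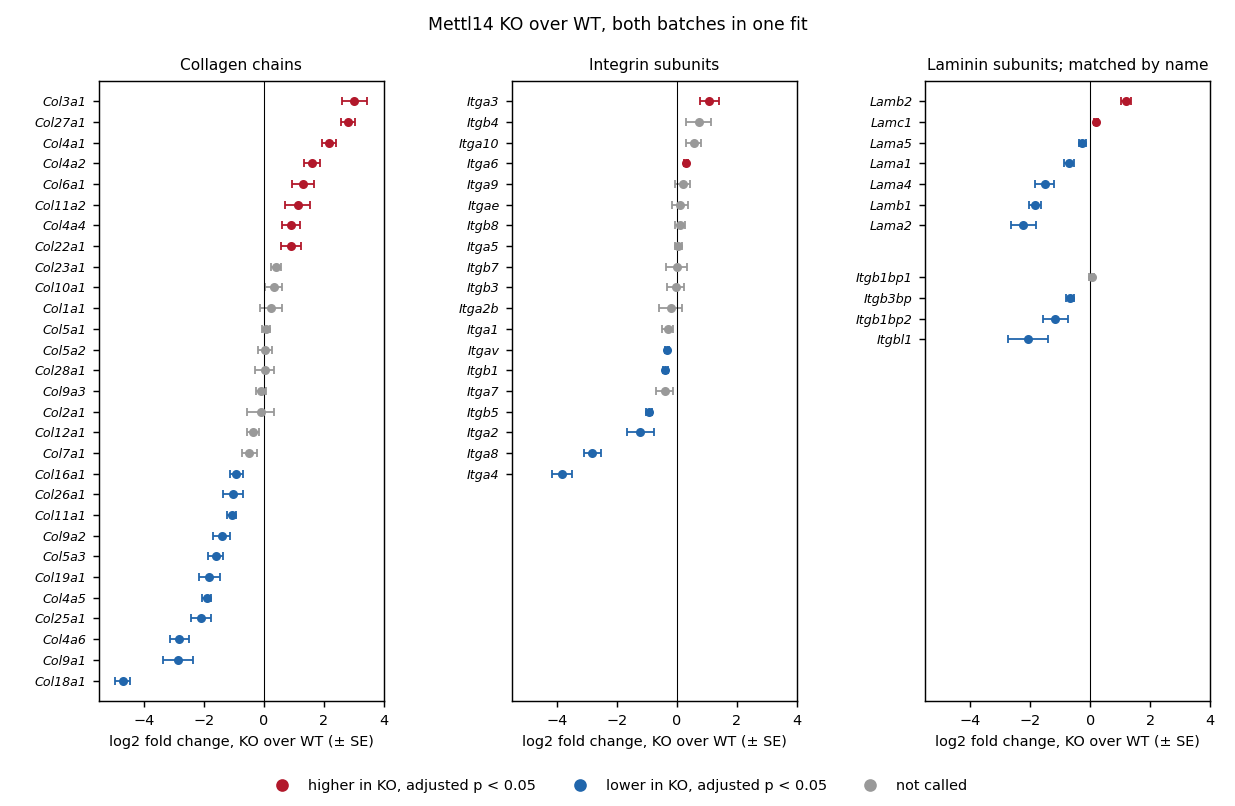
Log2 fold change of KO over WT (x axis, with its standard error) for each of the 59 tested genes (y axis), fitted over both batches; red marks genes called higher, blue genes called lower and grey genes not called. Every laminin gene is coloured, and Itga4 and Itga8 lie furthest from 0 among the integrin subunits. Collagens run from Col18a1 at −4.70 to Col3a1 at 3.01.

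Among the laminins, the beta chain changed its make-up. Lamb1, the beta1 chain of the embryonic laminins (chr12:31265294-31329639, mm10), had 19.3, 9.59 and 11.2 CPM in KO libraries and 50.5, 50.5 and 69.1 CPM in WT libraries of batch 1, and 17.7 and 19.5 CPM in KO and 60.3 and 46.1 CPM in WT of batch 3. Each KO library was below each WT library, and RNA fell by 1.85 (log2, SE 0.20, adjusted p = 3.58e-06). Lamb2, the beta2 chain that takes the same place in the trimer (chr9:108479862-108490530), moved the other way: 212, 189.8 and 190.3 CPM in KO against 56.0, 66.4 and 69.9 CPM in WT of batch 1. KO libraries of batch 3 had 97.6 and 100.3 CPM, against 64.5 and 73.2 CPM in WT. The log2 difference was 1.19 ± 0.17 (SE, adjusted p = 5.01e-05). The rise of Lamb2 was larger in batch 1 than in batch 3 (log2 1.62 and 0.52 in a fit with a KO effect for each batch; difference 1.10 ± 0.16, adjusted p = 0.00136). In FPKM, fragments scaled by transcript length and library size so that levels of genes can be compared, Lamb2 made up 94.7 to 96.4% of the 3 beta chains in KO and 57.4 to 62.6% in WT of batch 1, and 87.1 to 89.6% in KO and 59.8 to 65.4% in WT of batch 3. Het libraries, with 63.6 to 67.7%, lay above the WT range of batch 1, the batch they belong to.

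The 4 tested alpha chains were called lower over both batches, as were 32.6% of all genes. With batch 3 fitted alone, 0 of the 3 tested there were called, against 31.8% of all genes (14.5% lower). Lama4, the alpha4 chain known from vessel and mesenchymal basement membranes, had 5.44, 3.59 and 6.46 CPM in KO and 30.4, 24.3 and 26.6 CPM in WT of batch 1, but 16.9 and 24.7 CPM in KO and 31.1 and 22.3 CPM in WT of batch 3, where the groups overlapped. In the fit with a KO effect for each batch the log2 differences were −2.40 ± 0.21 in batch 1 and −0.36 ± 0.23 in batch 3, and the 2 differed from each other (−2.04 ± 0.31, adjusted p = 0.00180). Lama1, the alpha1 chain of the earliest embryonic basement membranes, was lower in KO in both batches without overlap (8.03, 7.59 and 7.41 CPM in KO and 13.2, 10.0 and 11.97 CPM in WT of batch 1, and 7.38 and 4.12 CPM in KO and 11.96 and 8.94 CPM in WT of batch 3). Its log2 difference was −0.71 ± 0.16 (SE, adjusted p = 0.00129). Lama2, the alpha2 chain of muscle and nerve, was near the limit of detection, with 0.216, 0.0589 and 0.0726 CPM in KO and 0.518, 1.01 and 0.376 CPM in WT of batch 1, and 0.135 and 0.116 CPM in KO and 0.520 and 0.634 CPM in WT of batch 3, and fell by 2.23 (log2, adjusted p = 0.000485). Lama5, which made up most alpha-chain RNA (84.4 to 88.1% by FPKM in KO and 66.3 to 71.8% in WT of batch 1, and 76.4 to 87.0% in KO and 80.5 to 81.4% in WT of batch 3, where the groups overlapped), had 124, 86.4 and 109 CPM in KO and 115, 117 and 137 CPM in WT of batch 1 and 178 and 139.7 CPM in KO and 201 and 200.4 CPM in WT of batch 3. Its log2 difference of −0.26 ± 0.10 passed the test narrowly (adjusted p = 0.0404) and did not pass when any 1 of 12 of the 13 libraries was left out. It did not pass with DESeq2 (adjusted p = 0.0639), median-of-ratios scaling (0.0641), no filter on low counts (0.0674) or single-gene loci only (0.0718). Summed over the 5 alpha chains, FPKM was 8.51 to 13.3 in KO and 16.9 to 19.5 in WT of batch 1, and 19.6 to 22.5 in KO and 22.6 to 29.2 in WT of batch 3.

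Lamc1, the gamma1 chain shared by most laminins, had 172, 169 and 176 CPM in KO and 165, 148 and 161 CPM in WT of batch 1 and 247 and 229 CPM in KO and 197 and 192 CPM in WT of batch 3. In CPM, KO libraries were above WT libraries in both batches by a small step (0.19 ± 0.07 on the log2 scale, adjusted p = 0.0364). In FPKM the groups of batch 1 overlapped, with means of 22.2 in KO and 22.5 in WT. Those of batch 3 were 32.1 in KO and 25.9 in WT. The call was lost with limma on log2(FPKM + 1) (adjusted p = 0.277). Lama3, Lamb3 and Lamc3 did not reach the tested level.

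**Figure D2:**
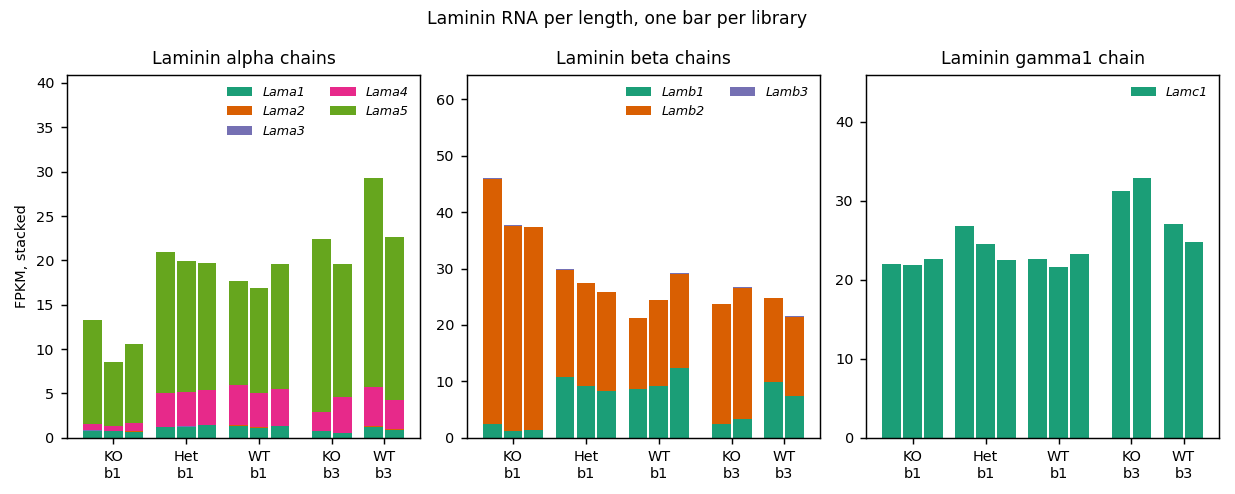
Stacked FPKM of the laminin alpha (left) and beta (middle) chain genes and FPKM of Lamc1 (right), 1 bar per library in the order KO, Het and WT of batch 1 and KO and WT of batch 3. Lamb1 is a thin band in the KO bars of batch 1, while Lamb2 fills most of each beta bar.

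The 6 type IV collagen genes lie in 3 head-to-head pairs, and the tested members of the pairs differed in direction. Col4a1 and Col4a2 encode the alpha1 and alpha2 chains of the general basement membrane network and start 3 bases apart on chromosome 8 in the deposited annotation. Col4a1 (chr8:11198423-11312826) had 51.2, 79.9 and 87.5 CPM in KO and 10.0, 13.54 and 13.8 CPM in WT of batch 1, and 22.1 and 15.1 CPM in KO and 6.50 and 6.41 CPM in WT of batch 3. No KO library came down to the WT range in either batch, and the log2 difference was 2.17 ± 0.22 (SE, adjusted p = 2.63e-06). Col4a2 (chr8:11312829-11449287) had 15.4, 24.8 and 25.5 CPM in KO and 4.28, 5.26 and 4.99 CPM in WT of batch 1, against 6.77 and 5.74 CPM in KO and 4.42 and 3.66 CPM in WT of batch 3. Its rise of 1.61 ± 0.27 over batches (adjusted p = 0.000165) was 2.17 in batch 1 and 0.62 in batch 3 in the fit with a KO effect for each batch. The batch 3 effect did not pass (adjusted p = 0.0782), and the 2 effects differed (1.55 ± 0.34, adjusted p = 0.0109). 

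The X-linked pair, Col4a5 and Col4a6, whose chains form the network of smooth muscle and some epithelia, fell. Col4a5 (chrX:141475419-141689235) had 13.8, 17.2 and 16.1 CPM in KO and 42.6, 51.6 and 53.9 CPM in WT of batch 1, and 5.76 and 7.77 CPM in KO and 35.2 and 31.6 CPM in WT of batch 3. Its log2 difference was −1.89 ± 0.15 (SE, adjusted p = 2.86e-07), with a WT level 3.15 times the KO level in batch 1 and 4.94 times in batch 3. Col4a6 (chrX:141165403-141474076), whose start is 1343 bases from that of Col4a5, had 0.216, 0.883 and 0.944 CPM in KO and 3.76, 4.72 and 3.49 CPM in WT of batch 1, and 0.135 and 0.116 CPM in KO and 1.95 and 1.41 CPM in WT of batch 3. The log2 difference was −2.81 ± 0.33 (adjusted p = 7.16e-06). In both genes and both batches the groups did not overlap. Col4a4, of the kidney and inner ear network, had 1.40, 0.706 and 0.799 CPM in KO and 0.583, 0.539 and 0.644 CPM in WT of batch 1, and 0.609 and 1.16 CPM in KO and 0.260 and 0.493 CPM in WT of batch 3. Its log2 difference was 0.91 ± 0.31 (adjusted p = 0.0213). The test was not passed without KO library 1 of batch 1 (adjusted p = 0.0661), KO library 2 of batch 3 (0.0535) or WT library 1 of batch 3 (0.0508). Col4a3 was below the tested level.

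**Figure D3:**
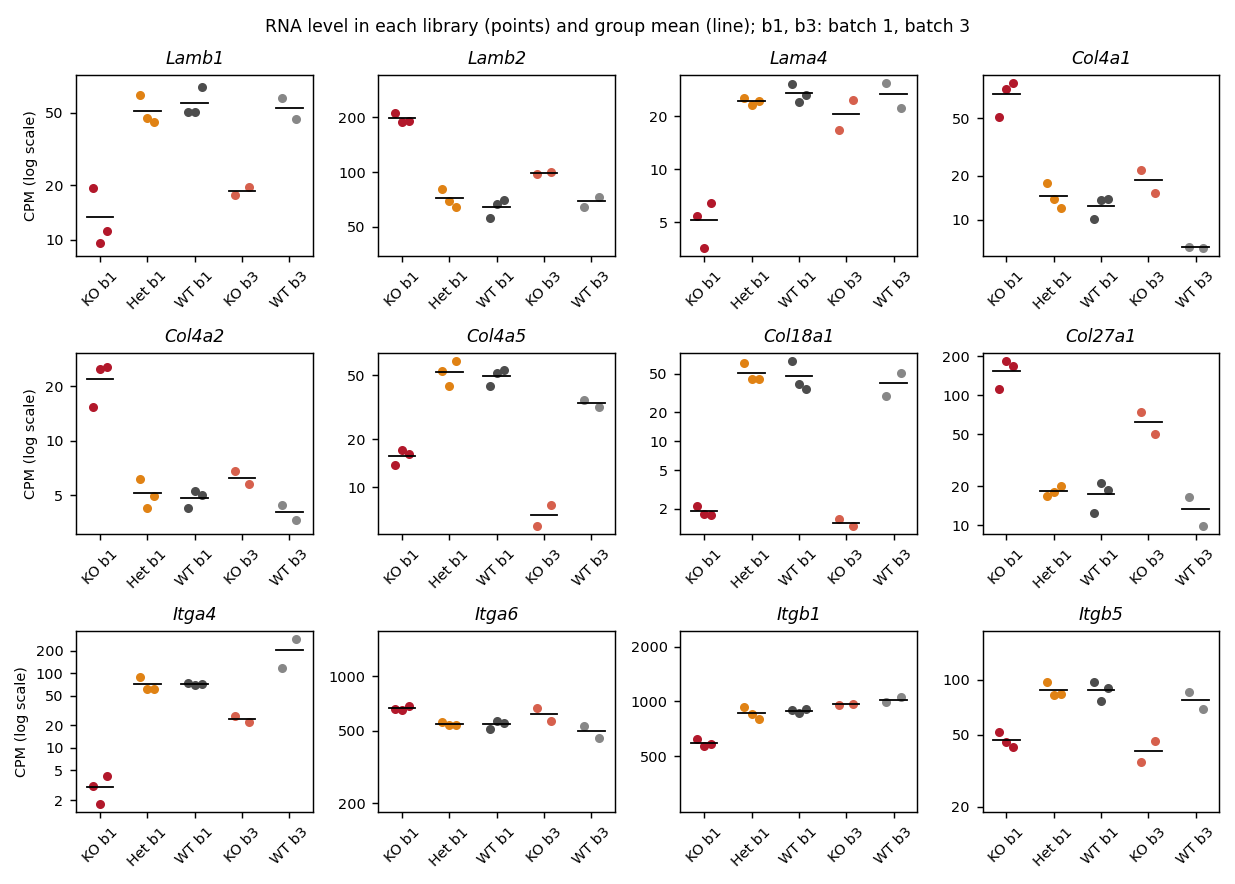
CPM on a log axis (y) for 12 members in each library, grouped on the x axis as KO, Het and WT of batch 1 (b1) and KO and WT of batch 3 (b3); points are libraries and lines are group means. Het points lie with WT points, and the distance between KO and WT is wider in batch 1 than in batch 3 for Lamb2, Lama4, Col4a2 and Itgb1.

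Col18a1, a multiplexin of basement membranes whose C-terminal fragment is endostatin, had the largest difference of all members (chr10:77052179-77166530). KO libraries had 2.16, 1.77 and 1.74 CPM in batch 1 and 1.56 and 1.33 CPM in batch 3, against 68.0, 39.4 and 35.2 CPM and 29.6 and 51.4 CPM in WT libraries. WT means were 25.2 times the KO mean in batch 1 and 28.03 times in batch 3, and the log2 difference was −4.70 ± 0.25 (SE, adjusted p = 1.66e-08). Its multiplexin relative Col15a1 was below the tested level.

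Of the fibrillar collagens, 3 of 9 tested genes were called higher and 2 lower, against 30.8% and 32.6% of all genes. Col27a1, a fibrillar collagen known from cartilage (chr4:63215412-63334990), had 113, 184 and 167 CPM in KO and 12.4, 21.1 and 18.7 CPM in WT of batch 1, and 73.9 and 50.1 CPM in KO and 16.6 and 9.86 CPM in WT of batch 3. KO means were 8.89 times the WT mean in batch 1 and 4.69 times in batch 3 (log2 2.79 ± 0.23, SE, adjusted p = 4.88e-07). Col3a1, the chain of type III collagen in soft connective tissue, was higher in KO at a low level: KO libraries had 3.02, 2.88 and 3.63 CPM in batch 1 and 2.302 and 2.26 CPM in batch 3, and WT libraries 0.130, 0.0674 and 0.376 CPM and 0.455 and 0.704 CPM (log2 3.01 ± 0.41, adjusted p = 3.29e-05). Col5a3 and Col11a1, minor chains that join other fibrillar collagens, were lower, with log2 differences of −1.60 ± 0.26 and −1.07 ± 0.16 (adjusted p = 0.000117 and 5.34e-05). Col5a3 had 2.80, 1.77 and 3.20 CPM in KO and 12.2, 13.2 and 10.6 CPM in WT of batch 1, and 11.04 and 13.7 CPM in KO and 25.5 and 20 CPM in WT of batch 3. Col11a1 had 33.8, 38.6 and 38.1 CPM in KO and 116, 75.0 and 71.0 CPM in WT of batch 1, and 33.2 and 22.3 CPM in KO and 47.1 and 48.9 CPM in WT of batch 3. In both genes the groups did not overlap in either batch. Col11a2 was called higher (1.13 ± 0.41, adjusted p = 0.0268), with overlapping libraries in batch 3.

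Col5a1 and Col5a2, the main chains of type V collagen, did not pass the test over batches, with log2 differences of 0.07 ± 0.13 and 0.04 ± 0.24. Col5a2 went in opposite directions in the 2 batches: 118, 108 and 133 CPM in KO and 57.1, 95.9 and 90.8 CPM in WT of batch 1, and 45.8 and 68.4 CPM in KO and 104 and 89.0 CPM in WT of batch 3. Neither pair of groups overlapped, and the batch effects differed (1.31 ± 0.35, adjusted p = 0.0262). Col1a1, the alpha1 chain of type I collagen, had at most 2.23 CPM in any library and Col1a2 at most 0.290 CPM.

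Of the fibril-associated collagens, 4 of 7 tested genes fell and 1 rose, against 32.6% and 30.8% of all genes. Those that fell were Col9a1 (−2.86 ± 0.49), Col19a1 (−1.82 ± 0.36), Col9a2 (−1.40 ± 0.28) and Col16a1 (−0.92 ± 0.22), with adjusted p-values from 0.000217 to 0.00231. Col9a1 and Col9a2 share the type IX trimer with Col9a3, which had a mean of 37.3 FPKM in WT of batch 1, against 1.65 FPKM for Col9a2 and 0.335 FPKM for Col9a1, and did not pass the test: 67.5, 102 and 107 CPM in KO and 77.4, 90.6 and 79.9 CPM in WT of batch 1, and 38.3 and 43.2 CPM in KO and 67.0 and 47.3 CPM in WT of batch 3 (log2 −0.09 ± 0.16). Col9a2 had 1.40, 2.47 and 1.45 CPM in KO and 3.24, 4.45 and 3.43 CPM in WT of batch 1, and 0.271 and 0.174 CPM in KO and 1.43 and 1.34 CPM in WT of batch 3. Col9a1 had 0.0539, 0.118 and 0.218 CPM in KO and 1.17, 1.48 and 1.18 CPM in WT of batch 1, and 0.135 and 0.0580 CPM in KO and 0.390 and 0.211 CPM in WT of batch 3. Col19a1, found in the basement membrane zone, had 0.377, 0.177 and 0.508 CPM in KO and 2.40, 2.02 and 2.63 CPM in WT of batch 1, and 1.62 and 1.04 CPM in KO and 3.12 and 1.76 CPM in WT of batch 3. In these 3 genes each KO library was below each WT library of its batch. Exons of Col9a3 overlap those of Tcfl5 by 229 bases, so some fragments may belong to either gene. Col22a1 was called higher (0.90 ± 0.35, adjusted p = 0.0351) but lost the call without any 1 of 5 batch 1 libraries (adjusted p 0.0635 to 0.0972). In batch 3 its libraries went the other way, with 0.406 and 0.232 CPM in KO and 0.455 and 0.493 CPM in WT, without overlap.

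Col20a1, another fibril-associated collagen, was tested in batch 3 alone, where it had 13.9 and 12.2 CPM in KO and 1.06 and 0.338 CPM in WT libraries, a log2 difference of 4.19 ± 0.42 (adjusted p = 0.000602). Of the transmembrane collagens, Col25a1, which is made by neurons, had a log2 difference of −2.10 ± 0.32 (adjusted p = 7.48e-05), with 0.162, 0.294 and 0.363 CPM in KO and 2.20, 0.943 and 0.912 CPM in WT of batch 1, and 0.542 and 0.754 CPM in KO and 2.21 and 2.68 CPM in WT of batch 3. Col23a1 had a log2 difference of 0.41 ± 0.18 that did not pass (adjusted p = 0.0611). Col26a1 had 1.46, 0.824 and 1.16 CPM in KO and 2.33, 1.95 and 2.15 CPM in WT of batch 1, and 1.42 and 0.986 CPM in KO and 4.10 and 1.48 CPM in WT of batch 3. It fell by 1.03 (log2, adjusted p = 0.0145), a call lost without WT library 1 of batch 3 (adjusted p = 0.0693). Of the 6 type VI collagen genes only Col6a1 was tested, and it was called higher (1.30 ± 0.37, adjusted p = 0.00701) at 1.19 to 1.31 CPM in KO and 0.215 to 0.741 CPM in WT of batch 1. In batch 3 it had 1.49 and 0.696 CPM in KO and 0.325 and 0.775 CPM in WT, which overlapped.

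The most abundant members were integrin subunits. By mean FPKM over WT libraries the order was Itgb1 (203), Itga6 (81.1), Itgb8 (50.5), Itgav (40.8), Col9a3 (30.6), Itgb5 (29.7), Lamc1 (23.9), Itga7 (16.0), Lama5 (15.9) and Itgb1bp1 (15.8). FPKM were scaled separately in each batch, and the order is that of the pooled mean only. WT libraries of Itgb1 and of Itga6 did not overlap those of any gene below them. From Itgb8 down, WT libraries of each gene overlapped those of the next gene in the order. Itga7 had a WT mean of 23.0 FPKM in batch 1 and 5.62 FPKM in batch 3. In WT of batch 3 alone Itgav (43.1 FPKM) was above Itgb8 (33.7), and Col9a3 (20.5) was below Itgb5 (25.3) and Lamc1 (25.9). The 4 leading subunits had log2 differences of −0.39, 0.30, 0.10 and −0.34 between KO and WT.

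Itga6, the alpha6 subunit of laminin receptors and a marker of neural stem cells, was slightly higher in KO: 657, 653 and 690.1 CPM in KO and 511, 565 and 554 CPM in WT of batch 1, and 671 and 563 CPM in KO and 535 and 458 CPM in WT of batch 3. The step was 0.30 ± 0.07 on the log2 scale (adjusted p = 0.00177). Itga3, the alpha3 subunit of other laminin receptors, rose by 1.08 ± 0.33 (adjusted p = 0.0108), with 0.862, 1.53 and 2.25 CPM in KO and 0.583, 0.539 and 0.429 CPM in WT of batch 1, and 0.745 and 0.812 CPM in KO and 0.650 and 0.634 CPM in WT of batch 3. The remaining laminin-binding subunits, Itga7 and Itgb4, did not pass the test (−0.42 ± 0.29 and 0.72 ± 0.42). Itga7, best known from muscle, had 58.9, 98.5 and 83.6 CPM in KO and 89.6, 77.0 and 68.9 CPM in WT of batch 1, and 10.1 and 6.96 CPM in KO and 30.4 and 10.1 CPM in WT of batch 3. 

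Itgb1, the beta1 partner of most alpha subunits, had 624, 569 and 581 CPM in KO and 899, 868 and 904 CPM in WT of batch 1, and 956 and 967 CPM in KO and 996 and 1052 CPM in WT of batch 3. Over both batches its log2 difference was −0.39 ± 0.09 (adjusted p = 0.00233). With a KO effect for each batch it was −0.59 ± 0.08 (adjusted p = 1.97e-05) in batch 1, whereas in batch 3 the difference of −0.09 ± 0.10 did not pass (adjusted p = 0.475), and the 2 batches differed (−0.50 ± 0.12, adjusted p = 0.0177). Itgav, the alphav subunit that binds the RGD motif of fibronectin and vitronectin, fell by 0.34 (adjusted p = 0.00143): 249.9, 201 and 238 CPM in KO and 335, 298 and 298 CPM in WT of batch 1, and 295 and 270.0 CPM in KO and 326 and 322 CPM in WT of batch 3. Of the alphav partners beta5 and beta8, Itgb5 fell and Itgb8 did not pass the test. Itgb5 (chr16:33829665-33949338) had 51.9, 45.6 and 42.9 CPM in KO and 97.9, 76.6 and 90.1 CPM in WT of batch 1, and 35.4 and 45.9 CPM in KO and 85.8 and 69.6 CPM in WT of batch 3. WT means were 1.88 and 1.91 times the KO means (log2 −0.92 ± 0.10, adjusted p = 4.37e-06). Itgb8 had 456, 585 and 572 CPM in KO and 520.4, 506 and 439 CPM in WT of batch 1, and 401 and 219 CPM in KO and 358 and 242 CPM in WT of batch 3. The groups overlapped in both batches (log2 0.10 ± 0.16).

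The largest falls among integrins were in 2 alpha subunits. Itga4, which pairs with beta1 to bind fibronectin and VCAM1 (chr2:79255426-79333114), had 3.07, 1.77 and 4.21 CPM in KO and 75.2, 69.5 and 72.6 CPM in WT of batch 1, and 26.8 and 22.1 CPM in KO and 118 and 286 CPM in WT of batch 3. WT means were 24.0 times the KO mean in batch 1 and 8.26 times in batch 3 (log2 −3.85 ± 0.34, SE, adjusted p = 6.65e-07). Its exons share 166 bases with Cerkl. Itga8, the alpha8 subunit that binds nephronectin (chr2:12106660-12301920), had 0.539, 0.353 and 0.508 CPM in KO and 5.64, 4.85 and 4.94 CPM in WT of batch 1, and 0.948 and 1.16 CPM in KO and 3.71 and 5.49 CPM in WT of batch 3. Its log2 difference was −2.83 ± 0.28 (adjusted p = 2.14e-06). Itga5, the fibronectin receptor subunit, did not pass (0.05 ± 0.13). Of the collagen-binding subunits, Itga2 was called lower (−1.23 ± 0.45, adjusted p = 0.0276), with 3.77 to 7.77 CPM in KO and 7.64 to 10.98 CPM in WT of batch 1 and 0.745 and 0 CPM in KO and 4.75 and 2.68 CPM in WT of batch 3. The call was lost without any 1 of 4 libraries (adjusted p 0.0548 to 0.0725). Itga1 and Itga10 did not pass (−0.32 ± 0.18 and 0.55 ± 0.26). The leukocyte integrin genes were low: 6 of 8 were below the tested level, and Itgae and Itgb7 did not pass.

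Among the 4 genes matched by name only, Itgb3bp, a centromere protein that also binds beta3 integrin, fell by 0.67 (adjusted p = 0.000873). Itgb1bp1, an adaptor on the beta1 tail, had 34.0, 34.0 and 34.1 CPM in KO and 34.5, 31.5 and 33.9 CPM in WT of batch 1, and 28.4 and 33.8 CPM in KO and 30.8 and 28.6 CPM in WT of batch 3, and did not pass the test (0.05 ± 0.08). Its exons share 366 bases with Asap2. Itgb1bp2 and Itgbl1 were called lower at 3.84 CPM or less in each library (−1.16 ± 0.41 and −2.07 ± 0.67).

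Het cells were close to WT cells at these genes. No member was called between Het and WT of batch 1 (edgeR), where 0.0146% of all genes were, and 1 of 59, Itga7, had an unadjusted p below 0.05 (log2 0.47 ± 0.20). DESeq2 and limma on log2(FPKM + 1) called 0 as well. The median absolute log2 difference was 0.15 over the members and 0.10 over all genes. KO against Het, which shares the KO libraries with the comparison above, gave 13 members higher and 24 lower of 59 (68% of all genes were called, 33.8% higher and 34.2% lower). Col18a1, for example, had 65.3, 43.8 and 43.9 CPM and Itga4 89.2, 61.3 and 62.2 CPM in the Het libraries, near the WT values of 68.0, 39.4 and 35.2 CPM and 75.2, 69.5 and 72.6 CPM.

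Fitted alone, batch 1 gave 12 members higher and 21 lower of 59 (69.2% of all genes called, 34.2% higher and 34.9% lower), and batch 3, with fewer libraries, 5 higher and 16 lower of 51 (31.8% called, 17.3% higher and 14.5% lower). Of the 50 members tested in both, 39 had the same sign, 17 were called in both with the same sign, and 0 were called with opposite signs. The same shares over all genes were not computed, so these counts do not set the members apart from other genes. The KO effect itself differed between batches in 12 of 59 members, against 18.8% of all genes. The difference (batch 1 minus batch 3) was positive in 8 (8.31% of all genes), which were Itga2, Itgb1bp2, Itga2b, Col22a1, Col4a2, Itga10, Col5a2 and Lamb2, and negative in 4 (10.5% of all genes), which were Lama4, Col19a1, Col5a3 and Itgb1. The batches hold different lines and were tabulated with separately assembled annotations, and these cannot be told apart.

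**Figure D4:**
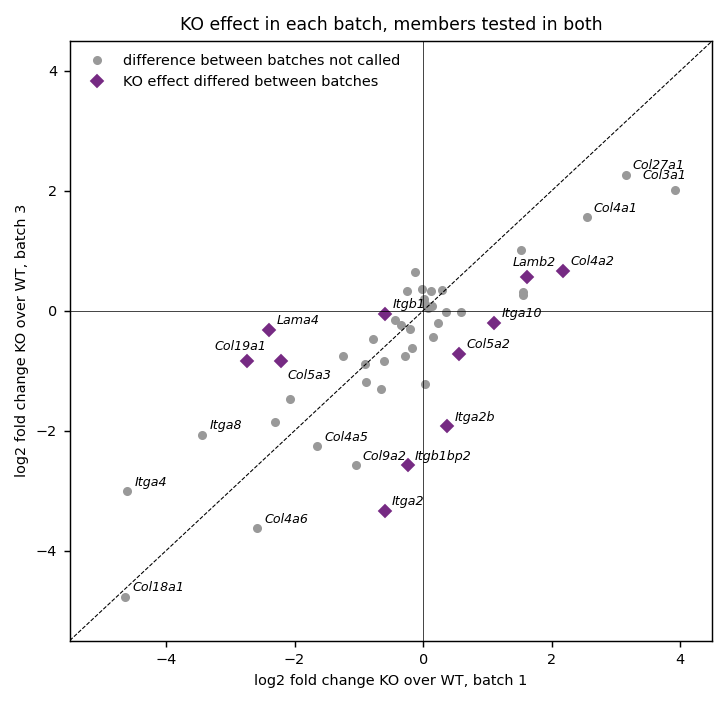
Log2 fold change of KO over WT in batch 1 (x) and batch 3 (y), each batch fitted alone, for the 50 members tested in both; purple diamonds mark members whose KO effect differed between batches and the dashed line marks equal effects. Col18a1 lies on the line at −4.63 and −4.77, while Lama4 and Itga2 lie far from it on opposite sides.

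In WT cells, m6A peaks overlapped exons of 24 of the 86 genes in at least 1 of the 4 deposited lists, all of them among the 59 tested genes, and of 13 genes in all 4 lists. The 4 lists set 2 IPs against 2 inputs and are not 4 replicates. Of the 59 tested members 22.0% had peaks in all 4 lists, compared with 41% of all tested genes that could be placed, and 40.7% had a peak in at least 1 list, compared with 64.8%. The genes were not matched for RNA level in these shares. The peaks merged into 42 exonic regions of 46 to 1192 bases, of which 19 lay in a last exon, 9 in a first exon and 14 in another exon. Of the 14 regions found in all 4 lists, 10 lay in a last exon and 3 in a first exon.

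The highest fold enrichment over input in any 1 list was in the first exon of Itga1 (chr13:115101747-115101921, minus strand, mm10), with authors' fold values of 5.21 to 6.89 over the 4 lists. The region in the last exon of Col5a1, exon 66 (chr2:28036973-28037318, plus strand), had 5.89 to 6.66. Itga4 carried a region in its last exon, exon 28 (chr2:79327168-79327496, plus strand), with folds of 4.89 to 6.74, centred 5782 bases before the transcript end. In Col27a1 the region lay in exon 3 of 61 (chr4:63224876-63225673, plus strand; 3.94 to 6.61). Itgb5 had its strongest region in its last exon, exon 15 (chr16:33948686-33949040, plus strand; 5.25 to 5.98), 475 bases before the transcript end, and 5 others that were each in at most 2 lists. Itgb8 (exons 1 and 14) and Lamc1 (exons 1 and 28) had a region at each end in all 4 lists. Itga6, Itga5 and Itga8 had 1 last-exon region each, Col5a1, Col5a2 and Col9a3 likewise had 1 last-exon region in all 4 lists, and Col16a1 was in all lists through different regions. Neither Itgb1, the most abundant member, nor Col18a1, Col4a1, Col4a2, Lamb1 or Lamb2 had an exonic peak in any list. Of the 13 genes with m6A in all lists, 3 rose in KO, 4 fell and 6 did not pass; of the 35 tested genes with none, 9 rose, 15 fell and 11 did not pass. Of all tested genes, whatever their m6A, 30.8% were called higher and 32.6% lower, and the 2 splits were not tested against each other.

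Promoters were taken as 1 kb either side of an annotated transcript start. H3K27ac marks active promoters and enhancers, and H3K27me3 marks genes held silent by Polycomb. Of the 59 tested members, 38 had H3K27ac in both KO lines and 39 in both WT lines (85.2% and 87.2% of all tested genes), 36 had it in all 4 lines (84% of all) and 11 in none (7.8%). H3K27me3 was present in both KO lines at 24 and in both WT lines at 19 members (12% and 10.9% of all tested genes), in all 4 lines at 19 (9.45% of all) and in none at 28 (79.5%). In both WT lines and neither KO line it was found at 0 members (0.595% of all). Members and all tested genes were not matched for RNA level in the shares given for these promoter marks. Both marks were present in all 4 lines at 12 members, against 5.29% of all tested genes (7.68% with both marks in both WT lines): Col4a1, Col4a2, Col9a2, Col12a1, Col19a1, Col25a1, Col27a1, Itga7, Itga8, Itga9, Itgb3 and Itgb4. Of these 12, 3 rose (Col4a1, Col4a2 and Col27a1), 4 fell (Col9a2, Col19a1, Col25a1 and Itga8) and 5 did not pass. Of all tested genes, whatever their marks, 30.8% were called higher and 32.6% lower, and the split was not tested against these shares. Col4a1 and Col4a2 start 3 bases apart, so the same promoter peaks were counted for both genes. Another 18 had H3K27ac in all 4 lines and no H3K27me3, among them Itgb1, Itga6, Itgav, Itgb8, Lamb2, Lamc1 and Lama5. No count of reads is given for the peaks, so their depth is unknown, and the lists differ in size, with 55130 to 80947 H3K27ac peaks and 33188 to 59561 H3K27me3 peaks.

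**Figure D5:**
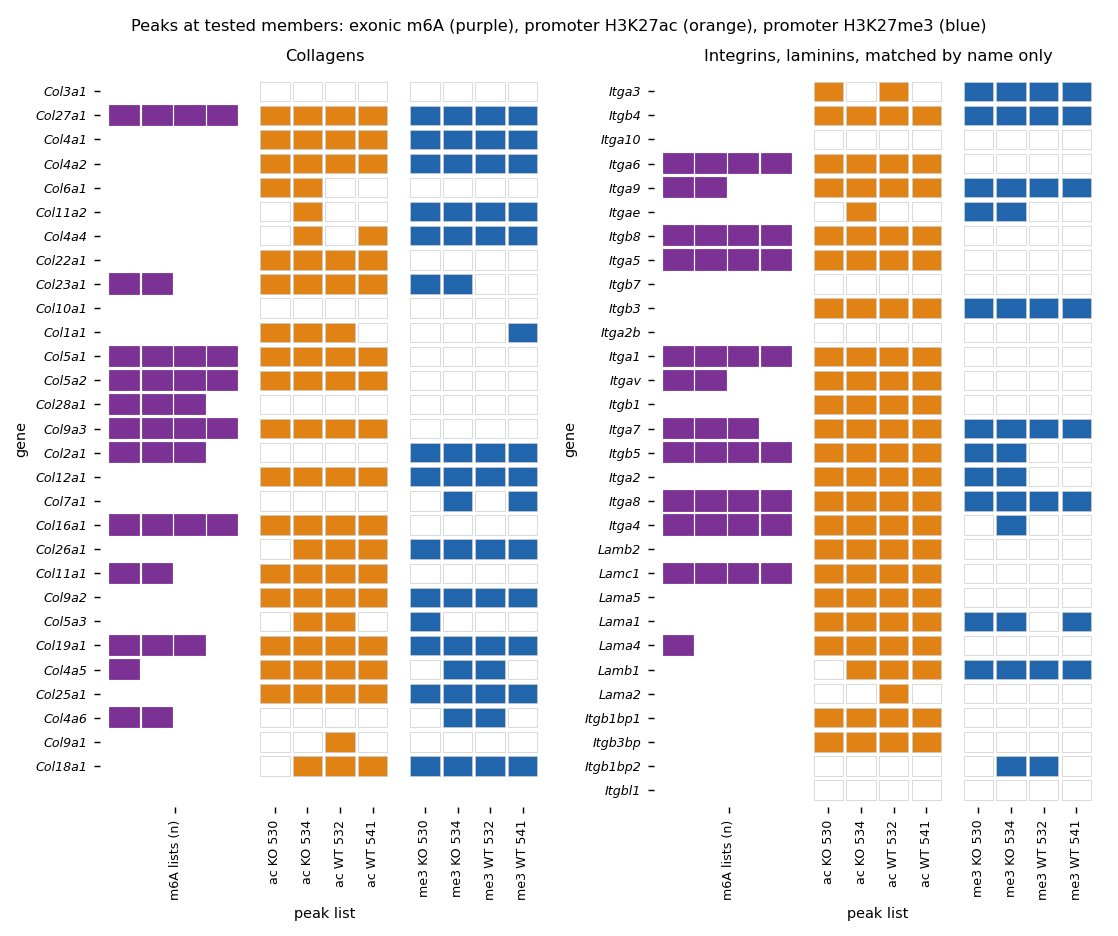
Peaks at the 59 tested members, collagens on the left and the others on the right, each family sorted by its KO over WT difference; filled squares give the number of m6A lists with an exonic peak (purple) and the presence of promoter H3K27ac (orange) and H3K27me3 (blue) in each KO and WT line. The blue column pairs KO 530 and KO 534 are filled without their WT neighbours at Col23a1, Itgae, Itgb5 and Itga2, and Col4a5, Col4a6 and Itgb1bp2 are filled in KO 534 and WT 532 alone.

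Promoter marks differed by genotype at few members. H3K27me3 was called in both KO lines and neither WT line at 4 tested members (1.2% of all tested genes): Itgb5, Itga2, Col23a1 and Itgae. At Itgb5 it also spread further, covering 9.16% and 7.05% of the gene in KO lines 530 and 534, against 0.99% and 0% in WT lines 532 and 541, while H3K27ac was called in all 4 lines and covered 4.93% and 7.80% of the gene in KO and 13.44% and 15.5% in WT. Over the genome, H3K27ac peaks also covered less in these KO lines (50.5 and 64.8 megabases) than in the WT lines (82.7 and 68.7). H3K27me3 peaks covered 48.9 and 65.5 megabases in KO and 58.8 and 42.2 in WT. Itgb5 and Itga2 were lower in KO, and Col23a1 and Itgae did not pass the test. H3K27ac was called in both KO lines and neither WT line at Col6a1 alone of the tested members (0.294% of all tested genes), a gene called higher in KO over both batches whose KO and WT libraries overlapped in batch 3. It was called in both WT lines and neither KO line at Col20a1 and Lama3, neither of which was tested over batches (0.852% of all tested genes showed this), and of which Col20a1 was higher in KO cells in batch 3. With 2 lines a genotype these are descriptions without a test.

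In the start windows printed above, the H3K27ac peaks overlapped the Lamb1 window in both WT lines and neither KO line, and H3K27me3 overlapped it in all 4 lines; within 1 kb of the start, KO line 534 also had an H3K27ac peak. The Lamb2 window had H3K27ac and no H3K27me3 in all 4 lines. At the outer start of Col18a1, H3K27me3 overlapped the window in both KO lines and neither WT line, and H3K27ac only in WT line 541. At its inner start, H3K27ac was present in KO line 534 and both WT lines with no H3K27me3. Within 1 kb of its starts, H3K27me3 was present in all 4 lines. The windows of Itga4 and Col27a1 had H3K27ac in all 4 lines, and that of Col27a1 had H3K27me3 in KO line 534 only. Within 1 kb of the Col27a1 start, however, H3K27me3 was present in all 4 lines.

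At the X-linked members H3K27me3 went with the line in both genotypes. It covered 28.3% of Col4a5 and 36.6% of Col4a6 in KO line 534 and 15.6% and 22.3% in WT line 532, but at most 0.30% of either in KO line 530 and WT line 541. Itgb1bp2, the only other X-linked member called, was covered over 76.0% in KO line 534 and 76.2% in WT line 532 and not at all in the other lines. The whole X chromosome moved alike: it held 28.6% of all bases under H3K27me3 peaks in KO line 534 and 16.4% in WT line 532, against 0.821% in KO line 530 and 0.573% in WT line 541. Xist, the RNA that coats the inactive X chromosome, was at 1690 CPM or more in 7 of the 13 RNA libraries and at or below 0.563 CPM in the other 6. Each group held both kinds: 2 of 3 KO, 1 of 3 Het and 2 of 3 WT libraries of batch 1, and 1 of 2 KO and 1 of 2 WT libraries of batch 3, were high. Col4a5 and Col4a6 RNA was lower in each KO than in each WT library whatever its Xist level.

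Other genes of matrix and adhesion were counted in the same fit. Of 18 tested genes of other basement membrane proteins 7 were higher and 6 lower in KO, among them Fbln2 (−1.94 ± 0.19, log2) and Fbln1 (1.39 ± 0.14), both fibulins, Frem1 (1.87 ± 0.23) and Nid1 (1.36 ± 0.26), the laminin linker nidogen-1. Of 28 genes of collagen synthesis and crosslinking 7 were higher and 12 lower, including the procollagen N-proteinases Adamts14 (−3.16 ± 0.36) and Adamts3 (−2.63 ± 0.17). Of 35 other matrix glycoproteins 12 were higher and 13 lower. Spp1, which encodes the integrin ligand osteopontin, had 0.122 ± 0.0553 CPM in KO and 14.9 ± 1.74 CPM in WT of batch 1 (SD, n = 3 each). In batch 3 Spp1 had 3.12 ± 0.676 CPM in KO and 27.1 ± 7.08 CPM in WT (SD, n = 2 each). Bgn, the proteoglycan biglycan, had 9.03 ± 2.69 CPM in KO and 0.291 ± 0.0890 CPM in WT of batch 1. In batch 3 Bgn had 2.08 ± 0.979 CPM in KO and 0.469 ± 0.165 CPM in WT. Over both batches the log2 differences were −4.28 ± 0.47 for Spp1 and 3.92 ± 0.49 for Bgn. The KO effect differed between batches in both genes (edgeR interaction, adjusted p = 0.00380 and 0.0307). Of 22 non-integrin receptors 6 were higher and 7 lower, with Dag1, the laminin receptor dystroglycan, higher (1.04 ± 0.08) and the collagen receptor Ddr2 lower (−2.26 ± 0.24). Of 32 integrin adaptors 8 were higher and 16 lower, among them Bcar1 (1.68 ± 0.09) and Cav1 (−3.03 ± 0.28). Of 35 matrix proteases and inhibitors 9 were higher and 20 lower, among them Mmp2 (2.20 ± 0.18), a gelatinase that cleaves type IV collagen, and the disintegrin proteases Adam19 (−2.47 ± 0.15) and Adam12 (−2.40 ± 0.32). The shares over all genes were 30.8% higher and 32.6% lower.

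Markers of the labelled cell type and of others were checked beside these results. All 12 neural progenitor markers were present; their summed level was 5388 to 5804 CPM in KO and 8267 to 9017 CPM in WT of batch 1, and 5 were higher and 4 lower in KO. In batch 3 they summed to 5854.5 to 5860.5 CPM in KO and 8324 to 8866 CPM in WT. Astrocyte markers summed to 1776 to 3210 CPM in KO and 361 to 533 CPM in WT of batch 1 and 300.3 to 358 CPM in KO and 147 to 207 CPM in WT of batch 3 (4 of 5 higher, 1 lower). Apoe, with a mean of 2213 CPM in KO and 218 CPM in WT, held most of the KO sum of batch 1. The marker that fell was Aldh1l1, with means of 46.8 CPM in KO and 228 CPM in WT of batch 1. Of 16 markers of fibroblasts, meninges and pericytes, which include Col1a1, Col1a2 and Col3a1, 9 were tested, 4 were higher (Acta2, Col3a1, Pdgfrb and Tagln) and 1 lower (Pdgfra). They summed to 112 to 132 CPM in KO and 134 to 183 CPM in WT of batch 1 and 91.8 to 102 CPM in KO and 97.7 to 123 CPM in WT of batch 3. Zic1 and Pdgfra, with means of 61.7 and 43.7 CPM, held most of the KO sum of batch 1. Pdgfra is also in the oligodendrocyte lineage list. The defining genes Dcn and Lum had group means of at most 0.0975 CPM, and Kcnj8 was at 0 in every library. Endothelial markers summed to 6.63 to 12.9 CPM in KO and 3.22 to 4.47 CPM in WT of batch 1, and 3.07 to 3.79 CPM in KO and 3.24 to 3.32 CPM in WT of batch 3 (1 of 4 tested higher, 1 lower). Schwann cell and neural crest markers (1 of 3 tested higher, 1 lower; Foxd3 at 0) summed to 15.5 to 29.7 CPM in KO and 31.7 to 40.9 CPM in WT of batch 1, and 4.87 to 8.80 CPM in KO and 41.5 to 44.4 CPM in WT of batch 3. Choroid plexus markers (0 of 4 higher, 2 lower) summed to 46.3 to 47.8 CPM in KO and 35.7 to 42.2 CPM in WT of batch 1, and 1.02 to 2.20 CPM in KO and 12.5 to 17.2 CPM in WT of batch 3. Neuronal markers (3 of 9 higher, 1 lower) summed to 1069 to 1303 CPM in KO and 1168 to 1208 CPM in WT of batch 1, and 909 to 1086 CPM in KO and 1044 to 1179 CPM in WT of batch 3. Those called higher were Gad1 (log2 4.42 ± 0.16), Slc17a6 (2.98 ± 0.60) and Dcx (1.92 ± 0.52), and Syt1 was called lower (−1.04 ± 0.26). Gad2, Map2, Stmn2, Rbfox3 and Tubb3 did not pass the test. Oligodendrocyte lineage markers (2 of 7 higher, 3 lower) summed to 1281 to 1519 CPM in KO and 1596 to 1969 CPM in WT of batch 1, and 2606 to 2923 CPM in KO and 2169 to 2300.1 CPM in WT of batch 3. Microglia and blood markers, which include Itgam (0 of 3 tested higher, 1 lower), summed to 12.2 to 14.3 CPM in KO and 9.59 to 10.2 CPM in WT of batch 1, and 1.91 to 2.03 CPM in KO and 2.68 to 3.38 CPM in WT of batch 3. Such sums follow the most abundant genes of a list and are not shares of cells. In KO of batch 1, Map2 (mean 1072 CPM) held most of the neuronal sum and Kcnj13 (45.5 CPM) most of the choroid plexus sum. The part of cell composition in the results on collagens, laminins and integrins was not tested.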

How the data were processed

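RNA-seq tables hold, per the file headers, Cuffdiff's estimated counts of fragments and FPKM for each locus and library; TopHat2 2.1.0, Cufflinks and Cuffdiff and the build mm10 are named, without roles, in the submitters' processing notes. FPKM were scaled by the authors within each batch, per the file headers. Strandedness of counting is not given in the sources used here. Batch 1 listed 32572 loci and batch 3 26458, of which 9064 and 2779 named no known gene; 420 and 302 joined genes and 5.31% and 2.31% of counts were not whole (tolerance 1e-09). The batch 2 table repeated batch 1, so its 6 libraries were not analysed here. For the peak lists, the submitters' processing notes name Bowtie2 2.3.1 and MACS2. Each peak carries, per the file headers and format, the authors' fold enrichment (a ratio) and the deposited −log10 q; depth is unknown.

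Counts were rounded, joined by gene, scaled by TMM and tested with edgeR 4.0.16 (R 4.3.3) quasi-likelihood F tests with a low-count filter and Benjamini-Hochberg adjustment below 0.05 over all genes; the fit over batches had batch as a term, and the batch difference an interaction. The scripts were tested on simulated data. Alternatives used DESeq2 1.42.0 and limma 3.58.1 on log2(FPKM + 1) or log2(FPKM + 0.1), other scaling, no filter, single-gene loci, and libraries left out. A peak overlapped an exon or a promoter by at least 1 base; promoters spanned 1 kb either side of a start. Members and gene lists were chosen with earlier results of these data known. Members given per library were those called without overlap in either batch, up to 15 in each direction by size (9 higher and 15 lower), and the 10 highest by WT FPKM; others were named by batch difference, m6A in all 4 lists, a mark in both lines of 1 genotype only, or role. Values of 1 laminin gene are not reported here.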

Additional observations from a re-analysis of the deposited data

Results flagged for a closer look

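The KO effect differed between batch 1 and batch 3 in 12 members (interaction term, edgeR quasi-likelihood test, adjusted p below 0.05; batch 1 minus batch 3, log2 ± SE). For Itga2 it was 2.80 ± 0.81 (adjusted p = 0.0317), with KO over WT at −0.59 in batch 1 and −3.40 in batch 3. For Itgb1bp2 it was 2.38 ± 0.56 (adjusted p = 0.0137), with KO over WT at −0.24 in batch 1 and −2.62 in batch 3. For Itga2b it was 2.34 ± 0.68 (adjusted p = 0.0322), with KO over WT at 0.37 in batch 1 and −1.97 in batch 3. For Col22a1 it was 2.05 ± 0.59 (adjusted p = 0.0300), with KO over WT at 1.47 in batch 1 and −0.58 in batch 3. For Col4a2 it was 1.55 ± 0.34 (adjusted p = 0.0109), with KO over WT at 2.17 in batch 1 and 0.62 in batch 3. For Itga10 it was 1.35 ± 0.37 (adjusted p = 0.0259), with KO over WT at 1.11 in batch 1 and −0.24 in batch 3. For Col5a2 it was 1.31 ± 0.35 (adjusted p = 0.0262), with KO over WT at 0.55 in batch 1 and −0.76 in batch 3. For Lamb2 it was 1.10 ± 0.16 (adjusted p = 0.00136), with KO over WT at 1.62 in batch 1 and 0.52 in batch 3. For Lama4 it was −2.04 ± 0.31 (adjusted p = 0.00180), with KO over WT at −2.40 in batch 1 and −0.36 in batch 3. For Col19a1 it was −1.85 ± 0.55 (adjusted p = 0.0336), with KO over WT at −2.74 in batch 1 and −0.89 in batch 3. For Col5a3 it was −1.34 ± 0.35 (adjusted p = 0.0211), with KO over WT at −2.22 in batch 1 and −0.88 in batch 3. For Itgb1 it was −0.50 ± 0.12 (adjusted p = 0.0177), with KO over WT at −0.59 in batch 1 and −0.09 in batch 3. The 2 batches had opposite signs for Itga2b, Col22a1, Itga10 and Col5a2. The call was lost under at least 1 alternative for all of these genes except Lama4 and Lamb2; without WT library 1 of batch 3, for example, the adjusted p was 0.0561 for Col4a2 and 0.0674 for Itgb1. Of all genes, 18.8% showed such a difference, and the cause was not tested.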

How the results depend on the processing

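Counts of called members over batches stayed within 1.5 times the reported ones under each alternative run. In batch 3, limma on log2(FPKM + 1) called 9 members lower. The batch difference was called higher in 4 and lower in 1 with log2(FPKM + 1), and higher in 3 and lower in 2 with log2(FPKM + 0.1). Of all 86 members, 13 had m6A in all 4 lists, 40 H3K27ac in both KO lines and 42 in both WT lines, and 36 H3K27me3 in both KO lines and 31 in both WT lines. With −log10 q of at least 3, 7 of the 86 had m6A in all 4 lists, 23 H3K27ac in both KO lines, 19 H3K27me3 in both KO lines and 18 in both WT lines. In at least 1 list, 24 had m6A. Leaving out 1 library at a time gave 10 to 14 higher and 22 to 25 lower over batches, 12 to 13 and 20 to 22 in batch 1, 0 to 0 for Het, 11 to 13 and 22 to 26 for KO against Het, 3 to 7 and 12 to 16 in batch 3 (3 higher without WT library 1), and 2 to 11 and 3 to 5 for the batch difference (2 higher without WT library 1 of batch 3). Leaving out 1 line gave, of the 86, H3K27ac at 42 to 50 in KO and 44 to 52 in WT, and H3K27me3 at 38 to 46 in KO and 35 to 36 in WT. Of 1083 values for single genes, 965 kept direction and call, 96 lost and 9 gained a call, and 13 changed sign, all in genes not called: Col5a1 (−0.00393 and −0.0161 with log2(FPKM + 1) and log2(FPKM + 0.1)), Col5a2 (−0.00420 with log2(FPKM + 0.1); −0.116 to 0.283 when 1 library was left out), Itga5 (−0.0376 and −0.0517 on FPKM; −0.00111 to 0.140), and, when 1 library was left out, Col9a3 (−0.154 to 0.0755), Itga2b (−0.492 to 0.0486) and Itgb8 (−0.00510 to 0.254). Calls over batches were lost under log2(FPKM + 1) for Lama2 (adjusted p = 0.194), Lamc1 (0.277), Col4a4 (0.281) and Col22a1 (0.109), and without any 1 batch 3 library for Itgb1bp2 (0.0521 to 0.0864). The cause was not tested. No paired analysis was possible because the labels give line numbers that no 2 genotypes share.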
